A study of Homo sapiens with 12 samples.

Results

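The genes described here are 37 of the 28265 genes listed for HepG2, a cell line grown from a human hepatocellular tumour, after toosendanin or control treatment. They were chosen by name for their place in the lysosome: 24 acid hydrolases, 2 activator proteins that present lipids to hydrolases, 7 proteins of the lysosomal membrane and 4 genes of lysosomal sorting. Each library was labelled as the same cell line, and the groups differed by treatment alone: control or toosendanin, a triterpenoid of Melia toosendan known for liver toxicity. The labels give no dose, time or control vehicle. RNA pulled down with an antibody against N6-methyladenosine (m6A), called IP, and the RNA before pull-down, called input, were sequenced in 3 libraries per kind and treatment, 12 in all.

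Lysosomes break down glycolipids, glycosaminoglycans, proteins and glycogen with soluble hydrolases that work at acid pH. Most of these enzymes receive a mannose-6-phosphate tag in the Golgi and are carried onward by receptors that bind the tag, while heavily glycosylated membrane proteins line the organelle and export its products. Many lysosomal genes carry a palindromic E-box in their promoters, part of the CLEAR element that TFEB and related factors are known to bind.

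That motif is shown first, as a feature of the members that the rule did not use. Members were chosen as lysosomal genes, where the motif is already known, so its share among them is no independent finding. RefSeq promoters, from 250 bases before to 50 bases after a start in GRCh38.p14, were found for 28 of the 37 genes. These 28 had 43 promoters listed. A gene, member or not, counted as holding a motif where any of its listed promoters held it. The core CACGTG, which reads the same on both strands, was present for 11 of the 28 (39.3%), against 12.0% of the 12136 tested genes with a promoter. The longer palindrome TCACGTGA, which holds the core, was present for 7 members (25.0%) against 2.0% of those genes. Over all 35116 promoters of that length the shares were 7.26% and 0.98%. A match describes these letters only and does not show that a factor binds there. The 6 promoters printed were picked to show motif-bearing genes with a raised transcript (NEU1, CD63, LAMP1 and IGF2R) beside GAA and MCOLN1, which hold the longer form and did not pass the expression test. Capitals mark the core, or the longer form where it was found, and each sequence runs 5′ to 3′ along the transcript.
NEU1 (chr6:31862772-31863071, minus strand): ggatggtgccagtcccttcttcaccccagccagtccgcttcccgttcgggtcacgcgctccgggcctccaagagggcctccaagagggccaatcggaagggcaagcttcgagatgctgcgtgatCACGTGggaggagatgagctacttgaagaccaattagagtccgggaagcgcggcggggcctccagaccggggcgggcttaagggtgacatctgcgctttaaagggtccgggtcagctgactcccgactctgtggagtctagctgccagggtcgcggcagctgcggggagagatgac
CD63 (chr12:55728960-55729259, minus strand): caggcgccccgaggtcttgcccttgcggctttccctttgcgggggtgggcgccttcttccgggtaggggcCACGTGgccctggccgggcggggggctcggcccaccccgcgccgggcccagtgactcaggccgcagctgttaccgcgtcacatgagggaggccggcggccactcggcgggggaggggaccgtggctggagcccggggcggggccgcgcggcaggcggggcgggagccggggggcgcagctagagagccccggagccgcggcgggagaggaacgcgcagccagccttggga
LAMP1 (chr13:113296989-113297288, plus strand): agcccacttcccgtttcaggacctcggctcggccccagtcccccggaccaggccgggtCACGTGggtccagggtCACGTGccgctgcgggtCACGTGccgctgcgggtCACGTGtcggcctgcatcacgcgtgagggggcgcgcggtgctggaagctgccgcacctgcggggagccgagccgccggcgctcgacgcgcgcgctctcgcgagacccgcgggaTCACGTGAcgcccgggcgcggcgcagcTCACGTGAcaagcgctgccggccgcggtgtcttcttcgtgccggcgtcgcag
IGF2R (chr6:159968832-159969131, plus strand): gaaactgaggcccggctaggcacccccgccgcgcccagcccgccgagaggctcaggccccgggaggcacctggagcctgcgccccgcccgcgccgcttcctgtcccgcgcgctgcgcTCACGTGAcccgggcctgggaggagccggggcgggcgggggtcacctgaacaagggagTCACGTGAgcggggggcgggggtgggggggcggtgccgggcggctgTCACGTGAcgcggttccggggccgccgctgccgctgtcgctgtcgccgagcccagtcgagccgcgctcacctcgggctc
GAA (chr17:80101331-80101630, plus strand): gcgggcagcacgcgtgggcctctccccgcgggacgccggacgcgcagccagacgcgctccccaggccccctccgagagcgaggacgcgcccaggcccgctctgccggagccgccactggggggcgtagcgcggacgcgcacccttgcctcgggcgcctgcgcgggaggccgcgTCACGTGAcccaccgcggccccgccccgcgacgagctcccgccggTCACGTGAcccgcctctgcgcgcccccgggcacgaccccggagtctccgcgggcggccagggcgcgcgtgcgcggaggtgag
MCOLN1 (chr19:7522374-7522673, plus strand): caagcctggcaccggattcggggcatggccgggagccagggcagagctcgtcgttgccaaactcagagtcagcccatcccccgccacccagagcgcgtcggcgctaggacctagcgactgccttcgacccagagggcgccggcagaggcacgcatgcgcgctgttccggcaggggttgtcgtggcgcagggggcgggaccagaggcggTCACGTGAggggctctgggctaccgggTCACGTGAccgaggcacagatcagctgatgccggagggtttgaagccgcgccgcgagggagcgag

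LAMP1 held 6 copies of the core in its window, 2 of them in the form TCACGTGA. IGF2R held 3, GAA 2 and MCOLN1 2, all in that longer form, and NEU1 and CD63 held 1 core each. CD63 had 8 promoters listed, and only the printed promoter held the core. Of the 11 members with a core, 8 rose and 3 did not pass (GAA, ARSB and MCOLN1), where 20.5% of all 1454 tested genes with a core were called higher. Of the 17 members with no core in any listed window, 10 rose and GNPTAB fell, where 16% of all 10682 tested genes without it were called higher. The median log2 fold change was 0.53 with the core and 0.41 without it, a description over few genes.

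**Figure D1:**
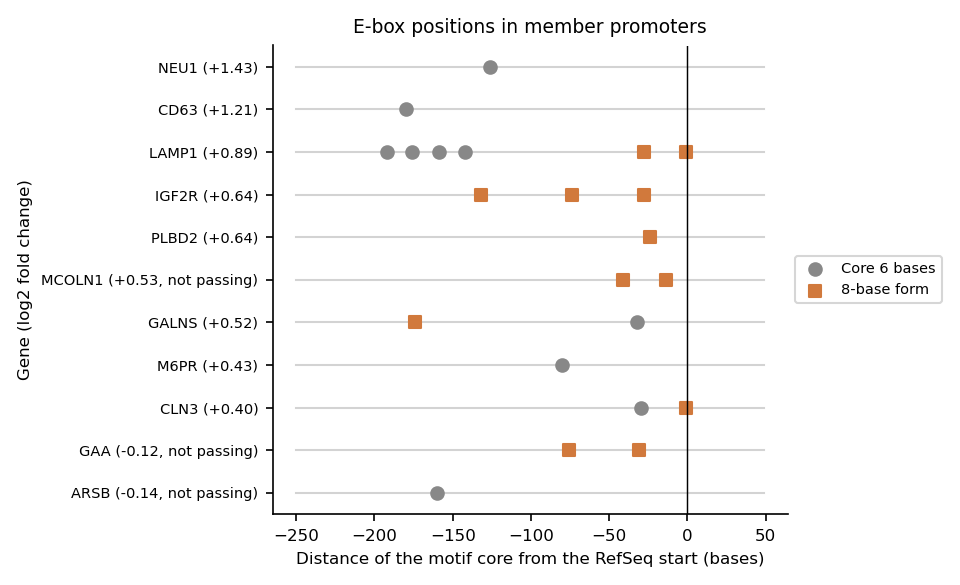
Positions of the E-box core in the promoters of the 11 members that hold one, as distance in bases from the RefSeq start (x axis, 0 is the start), with genes ordered by their deposited log2 fold change in brackets. Circles mark the core of 6 bases and squares the form of 8; GAA holds 2 of the longer form and was listed at -0.12.

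After toosendanin, transcripts of 15 of 24 lysosomal hydrolases, both activators and 6 of 7 lysosomal membrane genes rose, by 1.24-fold to 4.42-fold, while 2 sorting genes rose and 1 fell. All 37 members had an adjusted p in the authors' deposited table, a DESeq2 result in which ± is the standard error of the log2 fold change. At an adjusted p under 0.05, the authors' deposited table gave 26 of 37 members as changed, 25 higher and 1 lower. Among all 16552 genes tested, 31.4% changed, with 15.7% higher and 15.7% lower. Of the members, 35 lay in the upper 50% of mean normalized count, where 21.4% of genes were called higher. At an adjusted p under 0.01, 25 members passed, all higher, where 11.9% of all genes tested were higher. Under a Holm adjustment 15 members passed, all higher, where 6.27% of all genes tested were higher. The median log2 fold change was 0.52 over the members and -0.00023 over all genes tested. A rise of at least 2-fold was listed for 5 members in the authors' deposited table (ASAH1, NEU1, TPP1, CD63 and LIPA), where 3.84% of all genes tested passed that limit. In bulk RNA, more RNA per cell and more cells of a kind cannot be told apart.

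**Figure D2:**
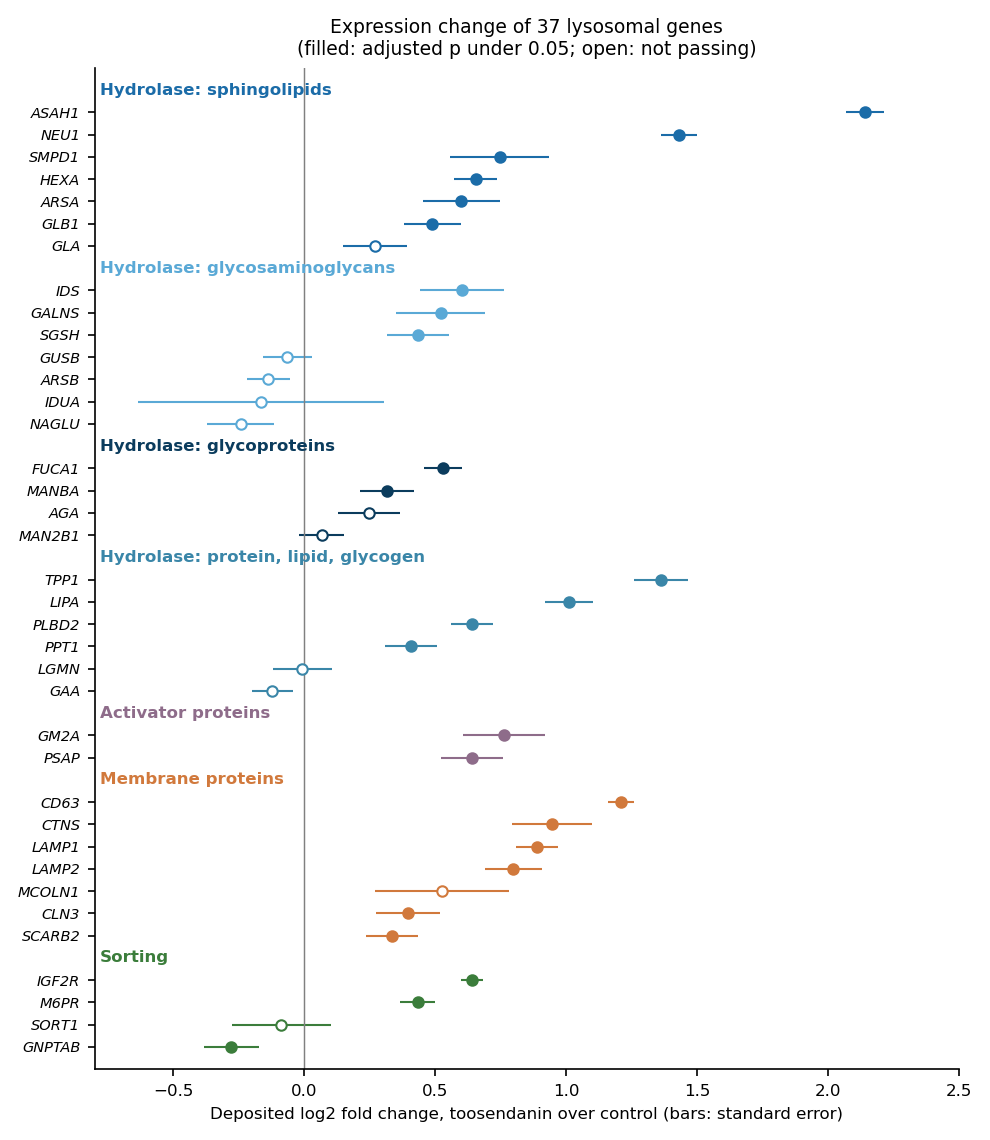
Deposited log2 fold change of each of the 37 genes (x axis, toosendanin over control), grouped by role, with bars for the standard error and open circles for genes at an adjusted p of 0.05 or more. ASAH1 lies at 2.14 and GNPTAB, at -0.28, is the only filled circle left of 0.

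Hydrolases gave 15 higher of 24 and 0 lower by the adjusted p of the deposited DESeq2 test. At an unadjusted p under 0.05 the same test listed 17 higher and 0 lower, where 19.6% of all genes tested were higher. Of the 24, 18 lay above 0. The enzymes of sphingolipid breakdown held the largest change. ASAH1, the acid ceramidase, had a mean normalized count of 4873 and stood at 2.14 ± 0.07 in the authors' deposited table (adjusted p = 4.58e-191, DESeq2). Its input counts, summed over 5 regions of the m6A table, were 2048 in control and 6494 after toosendanin, although the toosendanin inputs were shallower in total. NEU1, the sialidase, stood at 1.43 ± 0.07 in the authors' deposited table, a 2.70-fold rise (adjusted p = 1.63e-94, DESeq2). HEXA, the alpha subunit of beta-hexosaminidase, which trims the ganglioside GM2, stood at 0.65 ± 0.08 in the authors' deposited table (adjusted p = 3.72e-14, DESeq2). The acid sphingomyelinase SMPD1 at 0.75 ± 0.19, the sulfatide sulfatase ARSA at 0.60 ± 0.15 and the beta-galactosidase GLB1 at 0.49 ± 0.11 also rose in the authors' deposited table. With ASAH1, NEU1 and HEXA these made 6 of the 7 genes placed here under sphingolipid breakdown, a group with a median of 0.65. The count depends on that grouping. The 7th, GLA, the alpha-galactosidase, stood at 0.27 ± 0.12 in the authors' deposited table and did not pass (adjusted p = 0.0821, DESeq2).

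Among 6 hydrolases of proteins, lipids and glycogen 4 rose. TPP1, a tripeptidyl peptidase, stood at 1.36 ± 0.10 in the authors' deposited table (adjusted p = 2.26e-38, DESeq2), and its summed inputs were 1014 in control and 1820 after toosendanin. LIPA, the acid lipase that frees cholesterol and fatty acids from lipoprotein lipids, stood at 1.01 ± 0.09 in the authors' deposited table (adjusted p = 7.21e-27, DESeq2), with summed inputs of 1105 and 1768. The phospholipase B-like protein PLBD2 stood at 0.64 ± 0.08 in the authors' deposited table (adjusted p = 6.2e-14, DESeq2). The palmitoyl thioesterase PPT1 rose by 0.41 ± 0.10 in the authors' deposited table. In the authors' deposited table, neither legumain, LGMN, an asparaginyl endopeptidase, at -0.01 ± 0.11 nor the glycogen-degrading GAA at -0.12 ± 0.08 passed.

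Of the 7 enzymes of glycosaminoglycan breakdown 3 rose and 0 fell by the deposited DESeq2 test, with a median of -0.07, and the same counts held at an unadjusted p under 0.05. No test of the difference between enzyme groups was made. Those that rose were sulfatases and a sulfamidase: IDS at 0.60 ± 0.16, GALNS at 0.52 ± 0.17 and SGSH at 0.44 ± 0.12 in the authors' deposited table. The sulfatase ARSB at -0.14 ± 0.08, the glucuronidase GUSB at -0.07 ± 0.09, the glucosaminidase NAGLU at -0.24 ± 0.13 and the iduronidase IDUA at -0.17 ± 0.47 missed the threshold of the authors' deposited table. IDUA had the lowest mean normalized count of the members, 55.5, and its wide error leaves a change of the size seen in IDS undetectable at this depth. Of 4 enzymes that strip sugars from glycoproteins, the fucosidase FUCA1 at 0.53 ± 0.07 and the beta-mannosidase MANBA at 0.32 ± 0.10 rose in the authors' deposited table. The aspartylglucosaminidase AGA at 0.25 ± 0.12 and the alpha-mannosidase MAN2B1 at 0.07 ± 0.09 did not pass there.

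Both activator proteins rose. PSAP, the precursor of the saposins that lift sphingolipids toward their hydrolases, stood at 0.64 ± 0.12 in the authors' deposited table (adjusted p = 7.03e-07, DESeq2), with summed inputs of 16200 in control and 18597 after toosendanin. GM2A, which presents the ganglioside GM2 to the hexosaminidase that holds HEXA, stood at 0.76 ± 0.16 in the authors' deposited table (adjusted p = 9.71e-06, DESeq2).

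Of the 7 lysosomal membrane genes 6 rose and 0 fell by the deposited DESeq2 test, with a median of 0.80. At an unadjusted p under 0.05 all 7 were higher. CD63, a tetraspanin of late endosomes and lysosomes, stood at 1.21 ± 0.05 in the authors' deposited table (adjusted p = 1.57e-129, DESeq2), and its summed inputs were 4512 in control and 7595 after toosendanin. The main glycoproteins of the lysosomal membrane both rose: LAMP1 stood at 0.89 ± 0.08 (adjusted p = 6.53e-27) and LAMP2 at 0.80 ± 0.11 (adjusted p = 3.06e-12) in the authors' deposited DESeq2 table. CTNS, which exports cystine, stood at 0.95 ± 0.15 in the authors' deposited table (adjusted p = 1.11e-08, DESeq2). SCARB2, which carries the glucocerebrosidase to lysosomes, at 0.34 ± 0.10 and CLN3 at 0.40 ± 0.12 also rose in the authors' deposited table. The calcium channel gene MCOLN1 stood at 0.53 ± 0.26 in the authors' deposited table and did not pass (adjusted p = 0.107, DESeq2). Its mean normalized count was 225.1, the lowest of this group.

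The 4 sorting genes did not move as one. IGF2R, the larger of the mannose-6-phosphate receptors, stood at 0.64 ± 0.04 in the authors' deposited table (adjusted p = 7.12e-51, DESeq2), and its summed inputs were 28842 in control and 31920 after toosendanin. The smaller receptor, M6PR, stood at 0.43 ± 0.07 in the authors' deposited table (adjusted p = 1.85e-09, DESeq2). GNPTAB, which encodes the alpha and beta subunits of the phosphotransferase that begins the tag, fell by 0.28 ± 0.11 in the authors' deposited table (adjusted p = 0.0288, DESeq2). It was the only member that fell, and it no longer passed at an adjusted p under 0.01. Its summed inputs of 1153 in control and 659 after toosendanin gave -0.31 ± 0.07 after centring, where ± is the counting error. SORT1, sortilin, which carries some hydrolases without the tag, was listed at -0.09 ± 0.19 by the authors' deposited table and did not pass (adjusted p = 0.798, DESeq2). The values nearest the threshold were thus GNPTAB, just inside at 0.0288, and GLA, just outside at 0.0821.

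**Figure D3:**
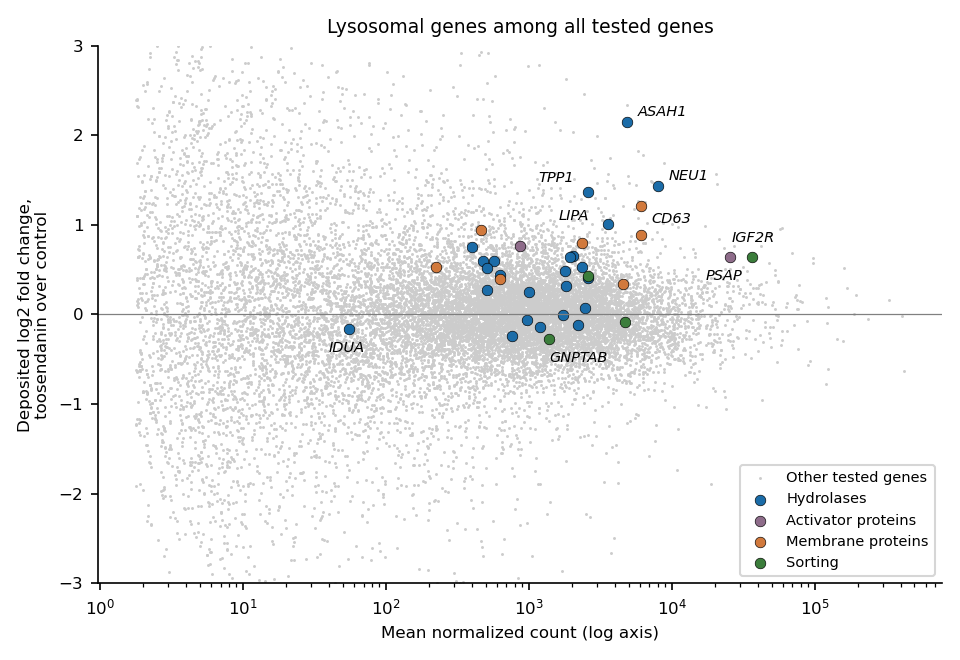
Deposited log2 fold change (y axis, toosendanin over control) against mean normalized count (x axis, log scale, not divided by gene length) for all genes with an adjusted p in grey and the 37 members in colour by role. The axis stops at ±3, which leaves out 733 tested genes and no member; ASAH1 (2.14), NEU1 (1.43), TPP1 (1.36) and CD63 (1.21) are the highest members.

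The input sums of the m6A table gave a look at the same RNA through another count. Regions were listed for 34 members, and none for NEU1, GLA and MCOLN1. After centring on the median gene, the log2 ratio of summed inputs had the sign of the deposited fold change in 25 of 25 called members and in 32 of 34 overall. The exceptions were SORT1 at 0.21 ± 0.05 and LGMN at 0.14 ± 0.06 in this ratio. Over these 34 genes the median was 0.35 by summed inputs and 0.51 in the authors' deposited table. The farthest apart was IDUA, at -0.98 ± 0.40 from 50 and 18 input counts. The sources used here do not say whether these inputs are the libraries behind the deposited expression test, so the match of signs is not independent support.

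**Figure D4:**
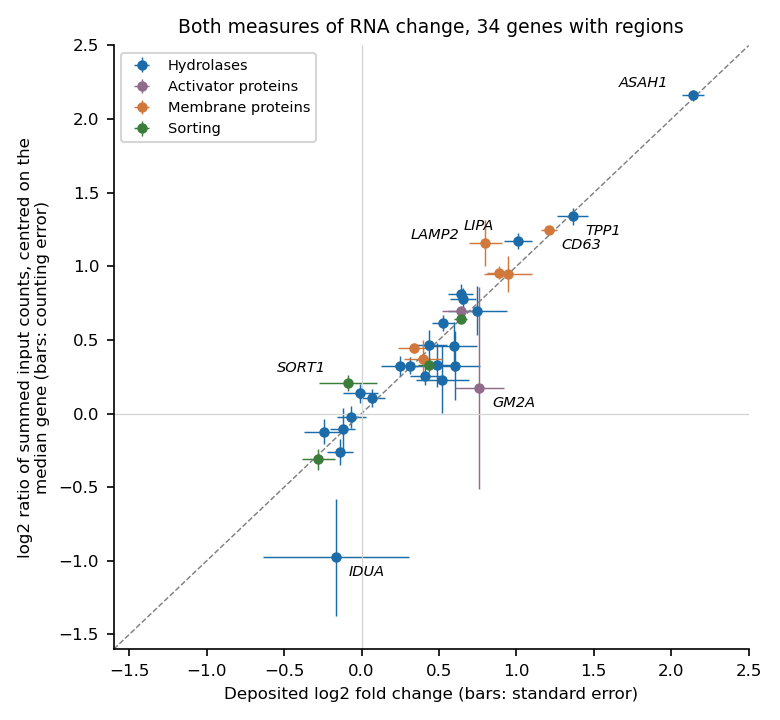
Log2 ratio of summed input counts, toosendanin over control and centred on the median gene (y axis, bars for counting error), against the deposited log2 fold change (x axis, bars for standard error) for 34 members. Points follow the dashed line of equal values, with IDUA (50 and 18 counts) and GM2A (10 and 8 counts) farthest from it in error or distance.

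Some members share their place in the genome with another gene, and the sources used here do not say how the authors' counting treated strand. By RefSeq gene spans, 8 members overlap a gene whose mean normalized count is over 10% of their own. Among the genes that rose, CTNS (mean 466.3) overlaps TAX1BP3, listed at a mean of 592.2 and 0.51 higher in the authors' deposited table. GALNS (507.7) overlaps TRAPPC2L at 628.5 and 0.42 higher in the authors' deposited table, and PPT1 (2617) overlaps CAP1 at 6908 and 0.19 higher there. GLB1 overlaps TMPPE, M6PR overlaps PHC1, LIPA overlaps IFIT5 and GLA overlaps RPL36A-HNRNPH2. IDUA overlaps SLC26A1, whose mean of 193.7 is above its own. Values of CTNS, GALNS, PPT1 and IDUA are given as uncertain for this reason, and the part of the overlapping genes in them was not tested.

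Other genes of the organelle, listed by textbook role outside the 37, were read from the authors' deposited table for comparison. Of 24 other hydrolases tested (GALC, at a mean normalized count of 0.830, had no adjusted p) 12 rose and 1 fell, of 30 other membrane and transport genes 16 rose and 1 fell, and of 33 other sorting genes 13 rose and 2 fell. Called higher were thus 50%, 53.3% and 39.4% of these lists, where 15.7% of all genes tested were higher and 15.7% lower. In the upper 50% of means 21.4% of genes were higher. Medians of the lists were 0.29, 0.35 and 0.19, beside 0.46 for member hydrolases, 0.80 for member membrane genes and 0.17 for member sorting genes. Among the hydrolases, the carboxypeptidase SCPEP1 stood at 0.89 ± 0.10 in the authors' deposited table, while the ribonuclease RNASET2 fell by 0.67 ± 0.17. Among the membrane and transport genes, CD68 stood at 1.41 ± 0.09, the chloride-proton exchanger CLCN7 at 1.13 ± 0.09 and the cholesterol-binding NPC2 at 1.17 ± 0.11 in the authors' deposited table. The channel gene TPCN1 fell by 0.29 ± 0.08 there. The clathrin light chain CLTA at 0.64 ± 0.06, the receptor adaptor GGA2 at 0.49 ± 0.06 and RAB9A, which serves receptor return, at 0.97 ± 0.13 rose in the authors' deposited table. The sorting nexins SNX5 at -0.40 ± 0.05 and SNX6 at -0.14 ± 0.06 fell there. GNPTG, the gamma subunit of the enzyme that GNPTAB encodes in part, rose by 0.41 ± 0.09 in the authors' deposited table.

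Markers of the labelled cell type were present. All 8 hepatocyte markers were counted, between means of 5546 and 411979. Of 9 macrophage markers, listed because those cells are rich in lysosomes, 4 were at 0, including PTPRC, C1QA, C1QB and MARCO, and 7 had a mean under 20. The others were LYZ at a mean of 49191 and AIF1 at 71.1. Of 6 fibroblast and 6 endothelial markers, 5 and 6 had a mean under 20. Some of these markers moved with the treatment. Among the hepatocyte markers ALB at 0.52 ± 0.08, APOA1 at 0.58 ± 0.06 and HNF4A at 0.16 ± 0.06 rose in the authors' deposited table, AFP fell by 0.29 ± 0.06, and the other 4 did not pass. Of 4 macrophage markers tested, CD163 (mean 4.23) rose by 5.74 ± 1.86 in the authors' deposited table, LYZ fell by 0.37 ± 0.06, and CD14 at 1.02 ± 0.70 and AIF1 at 0.37 ± 0.35 did not pass. Of the fibroblast markers only PDGFRB (mean 36.1) was tested, and it fell by 2.25 ± 0.87 in the authors' deposited table. Of 2 endothelial markers tested by the deposited DESeq2 test 0 passed, and 0 had an unadjusted p under 0.05. Summed levels of these lists in each group were not analysed here, and their part in the results was not tested.

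The share of m6A regions called as changed was no higher for the lysosomal transcripts than for all regions, and the called changes lay between -0.25 and 0.33. The m6A table listed 107 regions under the names of 34 members, of 46178 regions in all, and 79 of the 107 had a deposited FDR. The rest could not be called, and they held the largest rise (CLN3, 1.58) and the largest decrease (PLBD2, -1.34) of the member regions. Counts in it are sums over the libraries of a group (42316089 in control IP, 34131862 in control input, 29094328 in toosendanin IP and 24253006 in toosendanin input), so values per library were not analysed here, and ± on m6A is counting error only. The deposited p-values and FDRs of m6A follow that same error and do not measure the spread between libraries. At an FDR under 0.05, 5 of 79 regions changed (6.33%), against 8.95% of 24688 regions in all. In the authors' deposited table of m6A, 3 of the 5 were higher and 2 lower in IP over input, where 2.71% of all regions were higher and 6.24% lower. That split rests on the scaling. After centring on the median region, 5 higher and 0 lower were called, where 4.34% of all regions were higher and 3.5% lower. After scaling to total counts, 8 higher and 0 lower were called, where 7.29% of all regions were higher and 2.28% lower. With the statistic divided by 1.53, its robust spread over all regions, 0 of the 79 passed, where 1.71% of all regions did, and 5 had an unadjusted p under 0.05 (6.33%), where 7.79% of all regions did. Of 12 member regions with an FDR and more IP than input in both conditions, each scaled to its group total, 1 passed, where 9.59% of all such regions did.

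SCARB2 held 2 of the called regions, both higher. The first had IP and input counts of 1078 and 1147 in control and 1234 and 1040 after toosendanin, a log2 change of 0.33 ± 0.09 in the authors' deposited table of m6A (FDR = 0.00347). The second had 1277 and 1794 in control and 1555 and 1786 after toosendanin, at 0.27 ± 0.07 (FDR = 0.00462). In both, raw IP counts grew while raw input counts stayed level or fell, from toosendanin libraries that were shallower in total. After centring, the summed inputs of SCARB2 stood higher, at 0.44 ± 0.04. Both regions stayed higher under each scaling tried. Scaled to group totals, their log2 IP over input was -0.40 and -0.80 in control and -0.02 and -0.46 after toosendanin. Neither region was thus enriched by the antibody in either condition. The remaining SCARB2 region, at -0.16 ± 0.16, did not pass.

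IGF2R held 16 regions, the most of any member, and 2 of them were called in opposite directions. One went from 2709 IP and 4520 input counts in control to 3665 and 5193 after toosendanin, at 0.20 ± 0.05 in the authors' deposited table of m6A (FDR = 0.000498). The other, with 58387 counts the deepest member region, went from 18501 and 10676 to 18394 and 10816, at -0.10 ± 0.02 (FDR = 0.00222). That decrease turned to 0.02 when counts were scaled to group totals, so its direction depends on the scaling. The called M6PR region went from 1186 and 1723 to 914 and 1540, at -0.25 ± 0.08 (FDR = 0.0265), and did not pass after centring. In control, log2 IP over input scaled to group totals was -1.05 in the first called IGF2R region and -0.85 in that of M6PR. The deepest IGF2R region lay at 0.48. It was the only called member region with more IP than input on this scale in both conditions. Regions of PSAP (0.08 ± 0.03, FDR = 0.058), SGSH (-0.46 ± 0.18, FDR = 0.0774) and LIPA (-0.24 ± 0.09, FDR = 0.0845) were nearest to the threshold in the authors' deposited table of m6A without passing. Of 40 hydrolase regions with an FDR 0 passed, and 9 of all 58 hydrolase regions had an unadjusted p under 0.05 (15.5%), near the 15.6% of all regions. The 5 regions of ASAH1 lay between -0.23 and 0.16, and those with an FDR did not pass, while its transcript showed the largest rise of the members. The ASAH1 region at -0.23, from 125 counts in all, had no FDR and could not be called.

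Enrichment by the antibody is the other property the table gives for these regions. IP over input, scaled to group totals, was above 1 in control in 25 of 107 member regions (23.4%) and in 48.2% of all regions, with medians of -0.63 and -0.04 on the log2 scale. Regions of 1 gene share its reads, and member regions held more counts (median 866 against 468 over the 4 sums), so this is a description without a test. Among the member regions above 0 on this scale, GM2A reached 1.13 and a PLBD2 region 1.07, from 38 and 192 counts of control IP and input together. Those of the highly counted PSAP and LAMP1 lay between -1.59 and -1.24. The deepest member region, in IGF2R, lay at 0.48, and 3 of the 16 IGF2R regions were above 0.

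**Figure D5:**
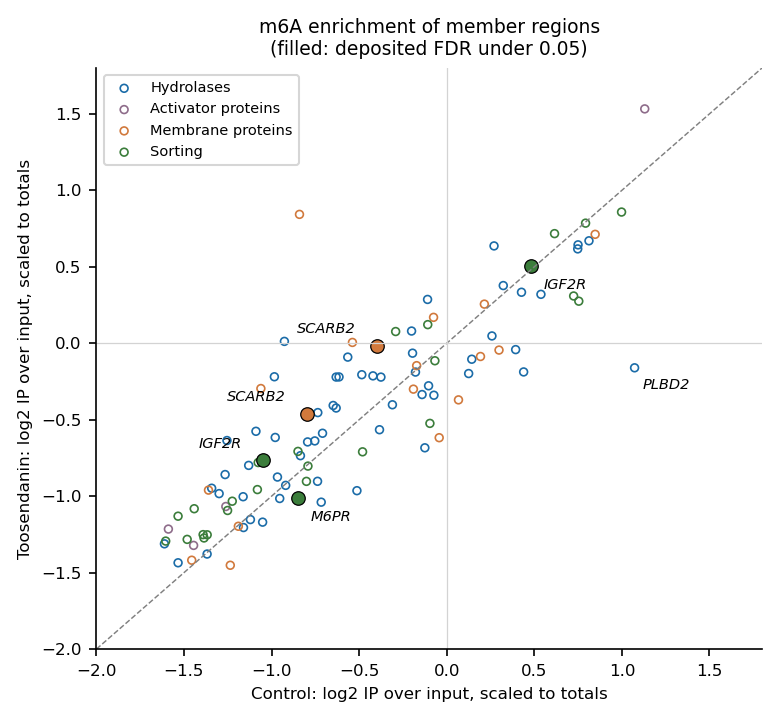
Log2 ratio of IP to input counts, each scaled to its group total, after toosendanin (y axis) against control (x axis) for the 107 member regions, with large filled circles for the 5 regions at a deposited FDR under 0.05. Points scatter around the dashed line of equal values; the PLBD2 region named at the right lies at 1.07 in control and -0.16 after toosendanin and has no deposited FDR.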

How the data were processed

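Expression values came from the authors' deposited comparison, whose columns are those of a DESeq2 result, per the file headers. The authors deposited, per gene, a mean normalized count (a signal) and a log2 fold change. They also deposited its standard error, the Wald score and p-values, adjusted by Benjamini-Hochberg over the genes listed with an adjusted p. The m6A table, per the file headers, holds whole-number counts that the authors summed within each group, a log2 fold change of IP over input, a p-value and an FDR. Tools given in the submitters' processing notes are HISAT2, StringTie and DESeq, with no version. The sources used here do not give the genome build of the tables, the counting settings, the region caller or the libraries in the expression test, and no coordinates of regions are printed. Libraries came from a stranded kit with unique molecular identifiers, per the labels' protocols. The labels do not say that replicate libraries are separate cultures, so p-values of the expression test reflect the spread of its libraries alone, which may be technical.

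The standard error implied by the deposited m6A p-value and log2 change was within 1% of the counting error of the 4 sums in 99.5% of 45783 regions. Those p-values and FDRs thus do not measure the spread between libraries. The planned edgeR fit could not be made: the tables used hold no counts per library, so the tests the authors deposited stand instead. A gene or region was called at an adjusted p or FDR under 0.05 over all features. Member regions carry 1 gene label equal to a member. Enrichment used counts plus 0.5 over group totals. Input ratios were centred on the median gene.

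Named genes followed a rule: up to 6 hydrolases, all activators, up to 4 membrane genes and all sorting genes in full, every gene that fell, 8 m6A regions by FDR, and 3 other genes per list and direction. The rest were named to account for every member, and some genes that the rule names are not reported here. Members, lists and motifs were chosen with earlier results of these data known. The test used to recompute m6A calls, on the counting error of the 4 sums, was run on simulated counts that held only that error. That run checks the calculation and cannot show how the test treats spread between libraries. Alternatives are given with their effects in the closing section. Scripts ran in Python 3.11.15 with matplotlib 3.10.9, numpy 2.4.6, pandas 2.3.3 and scipy 1.17.1.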

Additional observations from a re-analysis of the deposited data

How the results depend on the processing

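The 26 called members became 25 at an adjusted p under 0.01 and stayed 26 when adjusted over all genes with a p-value or over the upper 50% of means. With a limit of 2-fold, 5 members passed (4 hydrolases, 0 activators, 1 membrane gene and 0 sorting genes), and 1 other hydrolase, 7 other membrane genes and 0 other sorting genes. All that passed were higher, where 3.84% of all genes tested were higher by that limit. Under a Holm adjustment 15 members passed, all higher and 7 of them hydrolases, where 6.27% of all genes tested were higher. In each list of other lysosomal genes 7 passed, all higher except 1 of the sorting genes, which was lower. These limits are stricter by construction, and the deposited DESeq2 test listed 28 members higher and 1 lower at an unadjusted p under 0.05, where 19.6% of all genes tested were higher. Over the 34 members with regions the median was 0.35 from summed inputs and 0.51 in the authors' deposited table, where all 37 members gave 0.52. Called m6A regions of members numbered 1 when more IP than input, each over its group total, was required in both conditions. They numbered 0 after division by the robust spread, 8 after scaling to total counts (added after the data were seen), and 4 to 6 otherwise. The deepest IGF2R region reversed to 0.0204 under that scaling; the cause was not tested. No paired analysis was possible because the tables used hold no values per library, and leaving out single replicates was not run for the same reason. Among the members, IDUA and MCOLN1 had the lowest mean normalized counts (55.5 and 225.1) and the widest standard errors (0.47 and 0.26).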

Other observations

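Of the 107 member regions, 28 (26.2%) had no FDR in the authors' deposited table of m6A, as had 46.5% of all regions. One of them, in PLBD2, had the largest decrease of the member regions: IP and input counts went from 139 and 53 in control to 146 and 136 after toosendanin, at -1.34 ± 0.29 (p = 3.41e-06 in the authors' deposited table; FDR = 0.00029 when adjusted over all regions with a p-value, an alternative added after the data were seen). In raw counts, from toosendanin libraries that were shallower in total, the input grew while IP stayed level. The other PLBD2 regions, at -0.04 ± 0.19 and -0.18 ± 0.12, did not pass.

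A small CLN3 region without an FDR stood at 1.58 ± 0.59 from 105 counts in all (p = 0.00754 in the authors' deposited table), and the single IDS region at 0.86 ± 0.35 from 289 counts (p = 0.0129 there). Neither passed when adjusted over all regions.

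A region labelled with both GLB1 and TMPPE was not counted among the 107. Its IP and input counts were 66 and 71 in control and 28 and 88 after toosendanin, at -1.64 ± 0.40 in the authors' deposited table of m6A (FDR = 0.00132). The transcript of TMPPE stood at 1.48 in the authors' deposited expression table, and that of GLB1 at 0.49. Which of the genes the reads came from was not tested.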
